A study of Mus musculus with 9 samples.

Results

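The genes described here encode the matrix metalloproteinases (Mmp), the membrane-anchored ADAM and the secreted ADAMTS proteinases, the ADAMTS-like proteins (Adamtsl) and the tissue inhibitors of metalloproteinases (Timp). They were taken by symbol, as every gene named Mmp, Timp, Adam, Adamts or Adamtsl directly followed by a digit, and kept when the rounded count reached 10 in at least 2 of the 9 libraries. Of 59 such symbols among 20634 genes, 51 were kept: 14 of 17 Mmp, 4 of 4 Timp, 12 of 17 Adam, 16 of 16 Adamts and 5 of 5 Adamtsl. The 8 left out were Mmp24, Mmp25, Mmp27, Adam1b, Adam21, Adam32, Adam4 and Adam5. All 51 also passed the low-count filter of the test. The kept genes held between 0.0989% and 0.159% of the counts of a library.

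RNA was sequenced from the left ventricle of C57BL/6 mice aged 6 months, either wild type (WT) or lacking delta-sarcoglycan (KO). The protein, encoded by Sgcd, helps anchor dystrophin at the surface of the muscle fibre, and its loss causes muscular dystrophy with cardiomyopathy. Mice of both genotypes drank plain water (vehicle) or water with ifetroban, which blocks the receptor for thromboxane, at a dose of 25 mg/kg/day, starting at weaning. All were given running wheels from time to time, and all hearts were perfused with saline before the ventricle was taken. The vehicle groups had 2 WT and 2 KO libraries and the ifetroban groups 2 WT and 3 KO libraries, with 21510263 to 30182955 counts each. The labels do not say whether replicates were separate animals, so each p-value measures only the spread among these samples. For KO ifetroban replicate 1 the title and source name give ifetroban and the treatment characteristic gives vehicle, and it was counted as ifetroban.

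The libraries did not all behave as their labels say. Sgcd lay at 20.9 to 23.7 CPM (read counts scaled to library size, with TMM factors) in 3 WT libraries and at 7.30 to 13.3 CPM in the 5 KO libraries, but at 8.36 CPM in the library labelled WT vehicle replicate 1. In Pttg1 and Cyfip2, a pair of genes that separated every other WT library from every KO library, that library lay with WT. The pair was named with its values in these same libraries known, so it is no independent check of the genotype. In 4 libraries (the library labelled WT vehicle replicate 1, both KO vehicle and KO ifetroban replicate 1) long transcripts were lower relative to the mean of all libraries, and in the other 5 they were higher, so this split lay partly along the groups. Cardiomyocyte markers summed to 33100 to 48500 CPM and atrial markers to 0.667 to 1.97 CPM. KO ifetroban replicate 3 alone had the skeletal muscle genes Myh4 (3.51 CPM), Mylpf (4.32) and Tnnt3 (4.80), which reached at most 0.0759, 0.456 and 0.374 CPM in the other libraries, and erythroid markers summed to between 99.8 and 1010 CPM. In whole tissue, fewer cells of a type and less RNA per cell cannot be told apart.

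Metalloproteinases are zinc enzymes that cut collagens, elastin, proteoglycans and other proteins of the extracellular matrix, and most are made as inactive precursors. ADAM proteins mainly release the outer parts of membrane proteins, ADAMTS enzymes act on procollagens and on proteoglycans such as versican, and ADAMTS-like proteins have the accessory domains without the catalytic one. The 4 TIMP proteins bind and block the active site, and in the heart the balance of enzyme and inhibitor is one of the controls on fibrosis and on enlargement of the ventricle.

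For the genes past the threshold between the genotypes that had an entry (Timp1, Mmp3, Mmp12 and Adam8), the 150 bases before the RefSeq transcription start (build GRCm38.p6) are shown, since the main comparison turns on them. RefSeq starts were found for 33 of the 51 genes, in 37 windows. Capitals mark the AP-1 motif TGANTCA or the ETS core AGGAAG, both searched on both strands. They do not overlap each other in these windows. The Timp1 window is chrX:20870016-20870165, plus strand. The Mmp3 window is chr9:7445672-7445821, plus strand. The Mmp12 window is chr9:7347224-7347373, plus strand, before the later of 2 RefSeq starts and 2993 bases from the start of the deposited gene. The Adam8 window is chr7:139992563-139992712, minus strand.
Timp1: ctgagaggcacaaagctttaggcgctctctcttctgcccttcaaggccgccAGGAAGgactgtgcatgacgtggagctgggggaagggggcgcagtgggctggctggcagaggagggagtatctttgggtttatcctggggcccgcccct
Mmp3: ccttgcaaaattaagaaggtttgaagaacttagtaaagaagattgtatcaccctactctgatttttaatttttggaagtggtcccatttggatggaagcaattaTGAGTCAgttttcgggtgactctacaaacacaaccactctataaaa
Mmp12: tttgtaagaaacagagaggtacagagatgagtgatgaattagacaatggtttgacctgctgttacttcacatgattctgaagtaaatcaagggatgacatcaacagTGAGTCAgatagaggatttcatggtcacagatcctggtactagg
Adam8: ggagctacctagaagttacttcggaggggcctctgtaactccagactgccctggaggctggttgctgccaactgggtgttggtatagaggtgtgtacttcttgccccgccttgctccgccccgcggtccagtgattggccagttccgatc

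The AP-1 letters began 46 bases before the Mmp3 start and 44 bases before the Mmp12 start, and the ETS core began 99 bases before the Timp1 start. The window before the earlier Mmp12 start, not shown, had the ETS core and lacked the AP-1 motif. Neither motif was in the Adam8 window. The AP-1 motif was in 4.24% of all 32851 windows and in 10.8% of the windows of these families, those of Adam19, Mmp12, Mmp13 and Mmp3. The ETS core was in 19.7% of all windows and in 13.5% of those of these families. These matches describe the letters and were not tested as binding sites.

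Per kilobase of transcript, the inhibitors Timp3 and Timp2 were the most abundant of these genes. Timp3 had a mean level of 46.1 CPM per kilobase over the 9 libraries, Timp2 33.9, Timp1 21.7 and Timp4 6.22. The Timp1 mean came mostly from the KO libraries, at 8.07 to 78.4 CPM against 0.749 to 2.71 CPM in WT. Among the enzymes the highest were Mmp15, a membrane-type metalloproteinase (23.3 CPM per kilobase), Mmp2, a gelatinase (18.6), Adam9 (15.3), Adam15 (14.5) and Adam10, a principal sheddase (11.1). Mmp14, the membrane-type enzyme that activates the Mmp2 precursor, had 6.83 CPM per kilobase. Adamtsl5 (24.6) and Adamtsl4 (10.3) led the ADAMTS-like genes, with Adamtsl2 at 1.79, and Adamts1 (8.86), Adamts10 (4.55) and Adamts2 (4.55) the ADAMTS genes.

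The first comparison was KO against WT over both treatments, in an additive model of genotype and treatment. Of the 51 genes 6 rose, none fell and 45 did not pass (edgeR quasi-likelihood test, adjusted p under 0.05). The 6 were the inhibitor Timp1, the metalloproteinases Mmp3, Mmp12 and Mmp19, and the membrane proteinases Adam8 and Adam12. They make 11.8% of these genes, against 2.33% of the 15549 genes tested, or 2.06% counting rises alone. The median log2 change was 0.06 over the 51 genes and -0.02 over all genes tested. By family, 3 of 14 Mmp, 1 of 4 Timp, 2 of 12 Adam, 0 of 16 Adamts and 0 of 5 Adamtsl genes passed. Without KO ifetroban replicate 3 the same 6 passed. In 7 of the 51 genes (13.7%, against 4.62% of all genes) every KO library lay above every WT library: Timp1, Mmp3, Mmp12, Mmp19, Adam12, Mmp14 and Adamts8. In none did every KO library lie below every WT library (2.38% of all genes).

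**Figure D1:**
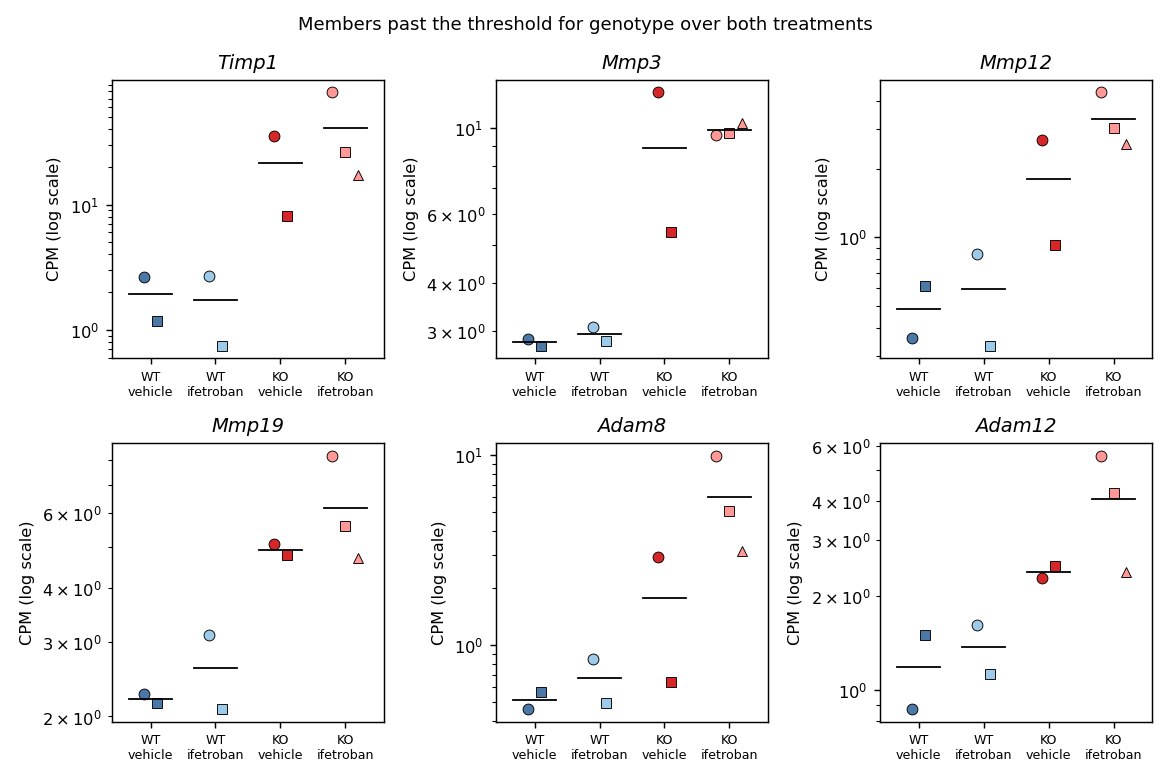
TMM-scaled CPM (log axis) of the 6 genes that rose in KO, 1 point per library, with circles, squares and triangles for replicates 1, 2 and 3 and a bar at each group mean. KO and WT libraries do not overlap except for Adam8, where KO vehicle replicate 2 (0.642 CPM) lies among the WT libraries.

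Timp1 encodes a secreted inhibitor of many metalloproteinases that is widely used as a marker of fibrosis (mm10 chromosome X, 20870166 to 20874735, plus strand, protein-coding). Its level was 2.67 and 1.17 CPM in WT vehicle, 2.71 and 0.749 in WT ifetroban, 34.96 and 8.07 in KO vehicle, and 78.4, 26.1 and 17.2 in KO ifetroban. The lowest KO library thus lay above the highest WT library, and the KO libraries spread over a 9.72-fold range. Timp1 rose by 4.08 ± 0.71 (log2, SE), or 16.9-fold (edgeR adjusted p = 0.0231). It is the largest of the 51 changes. The call was lost without WT vehicle replicate 2 (adjusted p = 0.0886), either WT ifetroban library (0.065 and 0.0895) or KO vehicle replicate 1 (0.0992), with no low-count filter (0.072), and with the length split as a term (log2 change 3.30, adjusted p = 0.0936).

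The other 3 inhibitors did not pass. Timp2, which also takes part in activating the Mmp2 precursor, measured 87.3 and 114 CPM in WT vehicle, 112 and 122 in WT ifetroban, 152 and 166 in KO vehicle, and 96.0, 117 and 164 in KO ifetroban. The KO vehicle libraries lay above all WT libraries and the KO ifetroban libraries overlapped them. The difference over both treatments was 0.35 ± 0.17 on the log2 scale (edgeR adjusted p = 0.347). Timp3, which is held in the matrix and also blocks several ADAM proteins, measured 232 and 157 CPM in WT vehicle, 324 and 164 in WT ifetroban, 195 and 262 in KO vehicle, and 167, 164 and 293 in KO ifetroban. Each genotype held both low and high libraries, and the difference was -0.02 ± 0.25 (adjusted p = 0.981). Timp4, the inhibitor known for its expression in the heart, measured 57.6 and 25.8 CPM in WT vehicle, 51.3 and 27.9 in WT ifetroban, 18.6 and 24.1 in KO vehicle, and 32.95, 19.9 and 49.5 in KO ifetroban. The KO vehicle pair lay below all WT libraries but KO ifetroban replicate 3 lay near the highest, and the difference was -0.56 ± 0.32 (adjusted p = 0.425).

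**Figure D2:**
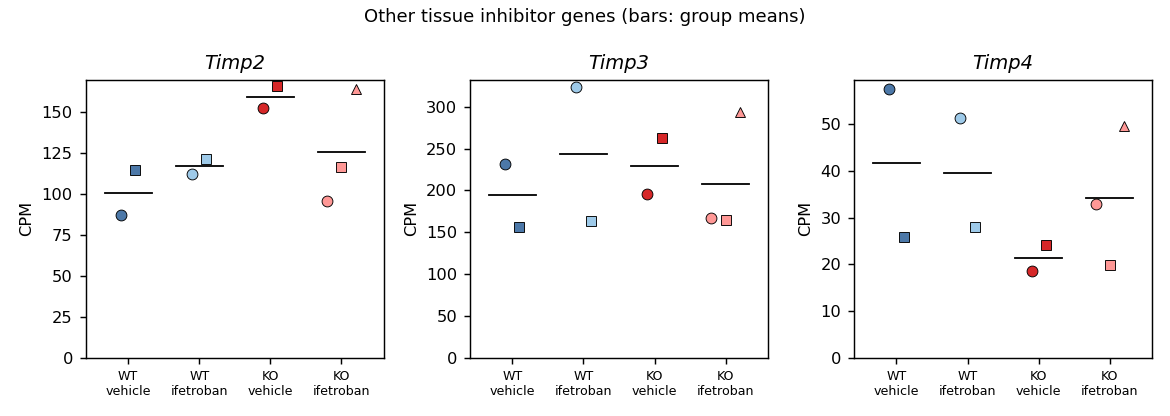
TMM-scaled CPM (linear axis from 0) of Timp2, Timp3 and Timp4 in each library, by group, with circles, squares and triangles for replicates 1, 2 and 3 and a bar at each group mean. Timp3 and Timp4 vary within each genotype as much as between them, and Timp2 is highest in KO vehicle (152 and 166 CPM) and in KO ifetroban replicate 3 (164 CPM).

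Mmp3, or stromelysin 1, cuts proteoglycans and fibronectin and activates other metalloproteinase precursors (mm10 chromosome 9, 7445822 to 7455972, plus strand). Its level was 2.87 and 2.75 CPM in WT vehicle, 3.07 and 2.83 in WT ifetroban, 12.4 and 5.42 in KO vehicle, and 9.60, 9.73 and 10.3 in KO ifetroban. The WT libraries were close together, and even KO vehicle replicate 2, the lowest KO library, lay clear of them. Mmp3 rose by 1.71 ± 0.22 (edgeR adjusted p = 0.00664), the smallest p-value among the 51 genes. It passed under all 18 alternatives tried, with a log2 change from 1.48 to 1.89. It passed with each library left out in turn, the highest adjusted p being 0.0387.

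Mmp12 is the macrophage metalloelastase (mm10 chromosome 9, 7344381 to 7369499, plus strand). Its level was 0.359 and 0.608 CPM in WT vehicle, 0.848 and 0.333 in WT ifetroban, 2.70 and 0.923 in KO vehicle, and 4.35, 3.02 and 2.58 in KO ifetroban. KO vehicle replicate 2 lay just above the highest WT library, and the others well above. Mmp12 rose by 2.21 ± 0.40 (edgeR adjusted p = 0.0217). The call was lost without either WT ifetroban library (adjusted p = 0.0606 and 0.0919) or without KO vehicle replicate 1 (0.0929).

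Mmp19 is a secreted metalloproteinase that acts on basement membrane proteins (mm10 chromosome 10, 128790953 to 128800824, plus strand). Its level was 2.26 and 2.15 CPM in WT vehicle, 3.11 and 2.08 in WT ifetroban, 5.09 and 4.78 in KO vehicle, and 8.19, 5.59 and 4.72 in KO ifetroban. All KO libraries lay above all WT libraries, KO ifetroban replicate 1 furthest. Mmp19 rose by 1.21 ± 0.19 (edgeR adjusted p = 0.015), a call lost without WT ifetroban replicate 2 (0.0703) or KO vehicle replicate 1 (0.0605). It overlaps Tmem198b on the opposite strand, at 6.20 to 8.63 CPM. No source used here gives the strand used in counting, so reads in such an overlap cannot be assigned to one gene.

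Adam8 encodes a membrane proteinase known from leukocytes (mm10 chromosome 7, 139978932 to 139992562, minus strand). Its level was 0.462 and 0.567 CPM in WT vehicle, 0.848 and 0.4996 in WT ifetroban, 2.92 and 0.642 in KO vehicle, and 9.92, 5.09 and 3.15 in KO ifetroban. KO vehicle replicate 2 lay inside the WT range and KO ifetroban replicate 1 was 15.4 times higher, the widest spread within KO among the 6 genes. Adam8 rose by 2.60 ± 0.54 (edgeR adjusted p = 0.0356). The call was lost under 9 of the 18 alternatives, 6 of them with 1 library left out, and the log2 change ranged from 2.19 to 2.91.

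Adam12 encodes a membrane proteinase known from regenerating muscle and from perivascular stromal cells in injured tissue (mm10 chromosome 7, 133883199 to 134232146, minus strand). Its level was 0.872 and 1.498 CPM in WT vehicle, 1.62 and 1.12 in WT ifetroban, 2.28 and 2.49 in KO vehicle, and 5.57, 4.23 and 2.38 in KO ifetroban. All KO libraries lay above all WT libraries. Adam12 rose by 1.31 ± 0.29 (edgeR adjusted p = 0.0471), close to the threshold. The call was lost under 9 of the 18 alternatives, 7 of them with 1 library left out, with log2 changes from 1.14 to 1.52.

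Markers of some other cells also rose in KO. No gene passed in the lists for cardiomyocytes (median log2 change -0.29), endothelium (-0.08), or smooth muscle and pericytes (0.08) (edgeR). The same held for mast cells (0.50), lymphocytes (0.03), mesothelium and epicardium (0.42) and erythroid cells (0.23), while 1 adipocyte marker rose. Macrophage markers summed to 220 to 292 CPM in WT and 431 to 500 in KO, and 6 of 8 rose (edgeR), where 2.06% of all genes did. Activated fibroblast markers summed to 99.4 to 132 CPM in WT and 204 to 420 in KO, and 2 of 4 rose. General fibroblast markers summed to 1450 to 1750 CPM in WT and 1490 to 2120 in KO, with 1 of 7 risen. Neutrophil markers, 5 of 6 in the deposited values, summed to 1.58 to 9.34 CPM in WT and 6.72 to 22.7 in KO, with 0 risen, and Retnlg was at 0 in 1 library. Within KO, Timp1, Mmp12 and Adam8 were each highest in KO ifetroban replicate 1 and lowest in KO vehicle replicate 2. These libraries also had the highest (500 CPM) and the lowest (431 CPM) macrophage sum among KO, while the activated fibroblast sum ran the other way, at 204 and 420 CPM. The macrophage markers were divided, and Lyz2 alone made 296 of the 500 CPM. KO ifetroban replicate 1 was highest among KO for Lyz2, Cd68 (16.9 CPM) and Itgam (25.1), and intermediate for C1qa (58.8). It was lowest among KO for Adgre1 (13.8 CPM), Csf1r (45.4), Mrc1 (31.4) and Cd163 (13.2). The part of these cell types in the rises was not tested.

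The split by transcript length allowed 2 narrower comparisons. In its 4 negative-slope libraries, with KO vehicle set against the single library labelled WT vehicle replicate 1, so that the KO vehicle pair alone gives the spread, the log2 change was 3.02 ± 2.23 for Timp1, 1.64 ± 0.79 for Mmp3, 2.33 ± 0.89 for Mmp12, 1.13 ± 0.25 for Mmp19, 1.96 ± 1.60 for Adam8 and 1.45 ± 0.37 for Adam12. None of the 6 passed there (edgeR, lowest adjusted p = 0.0657, Mmp19). In the 5 positive-slope libraries, with KO ifetroban replicates 2 and 3 set against WT ifetroban, it was 3.66 ± 0.59 for Timp1, 1.78 ± 0.18 for Mmp3, 2.25 ± 0.43 for Mmp12, 1.01 ± 0.26 for Mmp19, 2.62 ± 0.39 for Adam8 and 1.29 ± 0.36 for Adam12. Mmp3 (adjusted p = 0.0122) and Adam8 (0.0406) passed. The 6 genes were chosen on these same libraries, so the direction within the sets is no separate support.

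**Figure D3:**
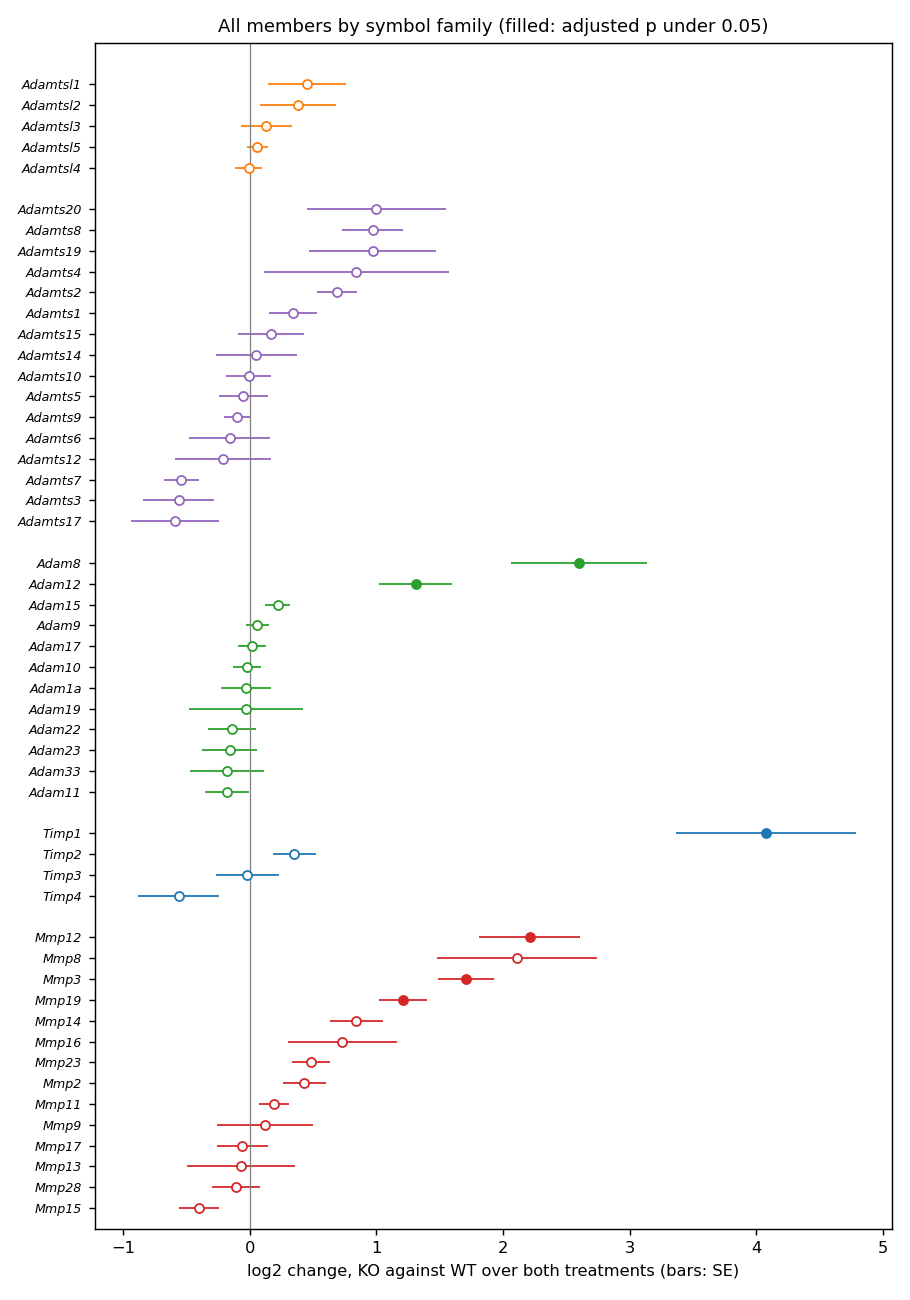
Log2 change of each of the 51 genes, KO against WT over both treatments, with SE bars, grouped by symbol family. Filled points passed an adjusted p of 0.05. The 6 filled points lie to the right of 0, and of the open points Mmp8 lies furthest from it (2.11 ± 0.63, edgeR adjusted p = 0.124).

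Genes next to the threshold included Adamts2, a procollagen N-proteinase needed to mature fibrillar collagen. It measured 20.2 and 24.8 CPM in WT vehicle, 29.5 and 24.3 in WT ifetroban, 38.2 and 45.9 in KO vehicle, and 28.8, 37.1 and 48.8 in KO ifetroban. KO ifetroban replicate 1 lay inside the WT range and the other KO libraries above it. The difference was 0.69 ± 0.16 (edgeR adjusted p = 0.0585), and Adamts2 passed under 6 of 18 alternatives. Mmp14 measured 8.62 and 19.4 CPM in WT vehicle, 13.9 and 19.2 in WT ifetroban, 28.8 and 23.4 in KO vehicle, and 29.7, 32.96 and 23.1 in KO ifetroban. The groups did not overlap, and the difference was 0.84 ± 0.21 (adjusted p = 0.0783).

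Mmp2, which Mmp14 activates, measured 42.01 and 51.4 CPM in WT vehicle, 47.3 and 51.3 in WT ifetroban, 62.6 and 84.3 in KO vehicle, and 40.6, 61.6 and 72.9 in KO ifetroban. KO ifetroban replicate 1 was the lowest of all 9 libraries and the other KO libraries lay above WT, and the difference was 0.43 ± 0.17 (edgeR adjusted p = 0.262). Without that library Mmp2 passed (adjusted p = 0.0414). Mmp9, the gelatinase known from neutrophils and macrophages, measured 1.18 and 2.51 CPM in WT vehicle, 4.77 and 1.17 in WT ifetroban, 2.20 and 2.17 in KO vehicle, and 3.89, 3.37 and 1.90 in KO ifetroban. Its highest library was WT ifetroban replicate 1, and the difference was 0.12 ± 0.38 (adjusted p = 0.913).

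The principal sheddases showed small differences. Adam10 lay between 38.8 and 57.7 CPM in WT and between 47.9 and 55.1 CPM in KO, with a log2 difference of -0.02 ± 0.11 (edgeR adjusted p = 0.947). Adam17, the enzyme that releases tumour necrosis factor from the cell surface, lay between 28.8 and 38.1 CPM in WT and between 30.5 and 39.6 CPM in KO, with a difference of 0.02 ± 0.11 (adjusted p = 0.951). Adam9 differed by 0.06 ± 0.09 and Adam15 by 0.22 ± 0.10. Among the remaining abundant genes, Mmp15 differed by -0.40 ± 0.16, Adamts10 by -0.01 ± 0.18, Adamtsl5 by 0.06 ± 0.08 and Adamtsl4 by -0.01 ± 0.11. Adamts1, which cuts versican and aggrecan, measured 57.8 CPM in the library labelled WT vehicle replicate 1, 30.1 to 33.2 CPM in the other WT libraries and 39.8 to 52.3 CPM in KO. Its difference was 0.34 ± 0.19 (adjusted p = 0.401), and without that library it was 0.61 (adjusted p = 0.0174). Adamtsl2, which binds to microfibrils and acts on transforming growth factor beta availability, measured 20.2 CPM in KO vehicle replicate 2 and 15.5 in KO ifetroban replicate 3 against 6.27 to 11.2 in the other 7 libraries, and the difference was 0.38 ± 0.30 (adjusted p = 0.566).

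Partners and substrates of these enzymes were taken from lists of regulators and binding partners, of matrix proteins and of membrane proteins. Of all 15549 genes tested, 2.06% rose in KO over both treatments (edgeR), and the median log2 change was -0.02. Among 25 tested of 30 activators, inhibitors, clearance receptors and ADAM partners, 3 rose and none fell in KO over both treatments (edgeR), with a median log2 change of 0.17. They were Thbs1, which encodes the matrix glycoprotein thrombospondin 1 (1.80 ± 0.33), Serpine2, a serine protease inhibitor (0.51 ± 0.11), and Plat, tissue plasminogen activator (0.48 ± 0.09). Among 24 tested of 27 matrix substrates, 9 rose and none fell, with a median of 0.61. Tnc, tenascin C, had the largest rise (3.88 ± 0.47, adjusted p = 0.00576), followed by Postn, periostin (1.77 ± 0.31), Fn1, fibronectin (1.20 ± 0.17), Col3a1 (1.16 ± 0.17), Cd44, a hyaluronan receptor (1.00 ± 0.18), Vcan, versican (0.92 ± 0.11), Col1a1 (0.91 ± 0.13), Bgn, biglycan (0.80 ± 0.15), and Col1a2 (0.72 ± 0.16). Among 26 tested of 30 shed membrane proteins, 6 rose and none fell, with a median of 0.37. Among them were the growth factor Ereg (3.28 ± 0.52), the adhesion protein Icam1 (0.68 ± 0.10), the chemokine Cxcl16 (0.85 ± 0.14), and the tumour necrosis factor receptors Tnfrsf1b (0.58 ± 0.10) and Tnfrsf1a (0.52 ± 0.11). Transcript levels say nothing of cleavage, and the lists were compared with other genes only by these counts and medians. The lists were chosen with earlier results of these data known, so their shares are no independent support. Col1a1, Dcn, Lum, Postn and Comp also stand in the fibroblast marker lists.

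KO was then compared with WT under each treatment, in a model of the 4 groups. Under vehicle none of the 51 genes passed in edgeR, where 0.0515% of all genes did. At an unadjusted p under 0.05, 12 were higher (23.5%, against 5.21% of all genes) and 2 lower (3.92%, against 2.69%). DESeq2 called 3, where it called 1% of all genes (144), and limma-voom called 0. The smallest p-values were those of Mmp3 (1.66 ± 0.33, edgeR adjusted p = 0.164), Adamts7 (-0.81 ± 0.20, adjusted p = 0.279) and Mmp19 (1.16 ± 0.30, adjusted p = 0.31). Adamts7, which cuts cartilage oligomeric matrix protein, measured 21.1 and 23.2 CPM in WT vehicle, 24.8 and 19.2 in WT ifetroban, 12.4 and 12.9 in KO vehicle, and 14.1, 20.5 and 17.9 in KO ifetroban. Both KO vehicle libraries lay well below all WT libraries and KO ifetroban replicate 2 inside the WT range. Over both treatments Adamts7 differed by -0.54 ± 0.14 (edgeR adjusted p = 0.0867). It overlaps Tbc1d2b on the opposite strand, at 15.6 to 29.2 CPM. Of the listed partners and substrates, 1 passed under vehicle, Postn (2.56 ± 0.33, adjusted p = 0.0385).

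Within the negative-slope libraries alone, 6 of these genes passed under vehicle (edgeR), where 247 of all genes (1.6%) did: Mmp14 (1.60 ± 0.17), Adamts2 (1.06 ± 0.15), Timp2 (0.87 ± 0.12) and Adam19 (0.71 ± 0.13) were higher in KO, and Timp4 (-1.43 ± 0.15) and Adamts7 (-0.73 ± 0.14) lower. WT is there the single library labelled WT vehicle replicate 1, whose Sgcd level lay within the KO range, and it is assumed to vary like the KO vehicle pair, the only replicates there.

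Under ifetroban none of the 51 genes passed in edgeR either, where 0.0386% of all genes did. At an unadjusted p under 0.05, 11 were higher (21.6%, against 6.24% of all genes) and 0 lower (against 3.12%). DESeq2 called 6, those that rose over both treatments, where it called 1.87% of all genes (290), and limma-voom called 0. The smallest p-values were those of Mmp3 (1.74 ± 0.31, edgeR adjusted p = 0.0892), Mmp8 (3.84 ± 0.73, adjusted p = 0.0979) and Timp1 (4.54 ± 0.98, adjusted p = 0.138). Timp1 differed by 3.52 ± 0.99 under vehicle (adjusted p = 0.375). Of the 51 genes, 35 (68.6%) had the same sign under both treatments, against 68.1% of all genes, and 25 (49.0%) were above 0 under both, against 31.5%. The comparisons share no library.

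**Figure D4:**
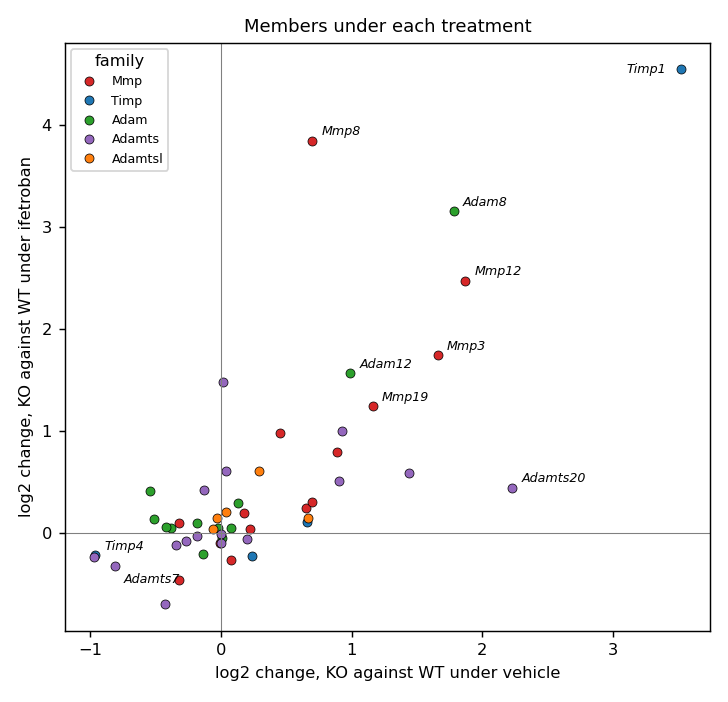
Log2 change of each of the 51 genes, KO against WT, under vehicle (x axis) and under ifetroban (y axis), coloured by symbol family. Timp1 is highest on both axes (3.52 and 4.54), the other 5 genes that rose over both treatments are above 0 on both, and Mmp8 stands apart, at 3.84 under ifetroban.

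Ifetroban was compared with vehicle within each genotype. In KO none of the 51 genes passed in edgeR, DESeq2 or limma-voom, and none of all 15549 genes did in edgeR (0%). At an unadjusted p under 0.05, 4 were higher (7.84%, against 2.26% of all genes) and 1 lower (1.96%, against 1.69%). The log2 difference was above 0 in 39 of the 51 (76.5%, against 51.2% of all genes), with a median of 0.19 against 0.01. Both KO vehicle libraries had a negative length slope and 2 of the 3 KO ifetroban libraries a positive one. In the negative-slope libraries alone, KO ifetroban is replicate 1 only, whose treatment characteristic gives vehicle, so this subset may hold no treated library. There the difference was above 0 in 24 of 50 (48%, against 49.8% of all genes), with a median of -0.01. The part of the length split in the shift was not tested. The smallest p-values were those of Mmp23, Adam8 and Adamts9, each with an edgeR adjusted p of 0.862. Mmp23, a membrane-anchored metalloproteinase, measured 5.95 and 5.22 CPM in WT vehicle, 5.13 and 4.71 in WT ifetroban, 7.97 and 10.1 in KO vehicle, and 5.06, 6.07 and 7.02 in KO ifetroban. Both KO vehicle libraries were the highest of the 9, and ifetroban differed from vehicle in KO by -0.58 ± 0.19. Adamts9, which cuts versican, measured 17.0 and 16.7 CPM in KO vehicle and 20.2, 23.9 and 22.2 in KO ifetroban, a difference of 0.39 ± 0.15. Adam8 differed by 1.75 ± 0.61, which became -0.10 when KO ifetroban replicate 1 was counted as vehicle, as its treatment characteristic has it.

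In WT none of the 51 genes passed in edgeR, DESeq2 or limma-voom, and none of all genes did in edgeR (0%). At an unadjusted p under 0.05, 1 was higher (1.96%, against 1.03% of all genes) and 0 lower (against 1.22%). The smallest p-values were those of Adamts20 (2.21 ± 0.95), Mmp8 (-1.99 ± 0.92) and Adam33 (-0.73 ± 0.42), each with an edgeR adjusted p of 0.881. Adamts20 rested on 3 counts in WT vehicle and 16 in WT ifetroban, a ratio of 4.83 with a 95% interval of 1.38 to 25.9 (exact binomial, counting error only). Mmp8 rested on 8 and 2 counts, a ratio of WT vehicle to WT ifetroban of 4.42 with an interval of 0.881 to 42.7. Adam33 lay between 0.583 and 1.26 CPM in the WT libraries.

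Over both genotypes none of the 51 genes passed for ifetroban in edgeR, DESeq2 or limma-voom, and none of all genes did in edgeR (0%). At an unadjusted p under 0.05, 3 were higher (5.88%, against 5.13% of all genes) and 1 lower (1.96%, against 2.84%). Adamts9 differed by 0.32 ± 0.10, Mmp23 by -0.41 ± 0.15 and Adam9 by 0.22 ± 0.09, each with an edgeR adjusted p of 0.545. Adamts9 measured 16.8 and 21.4 CPM in WT vehicle and 23.7 and 21.5 in WT ifetroban. The difference of the ifetroban effect between KO and WT was tested as an interaction, in which none of the 51 genes passed in edgeR, DESeq2 or limma-voom and none of all genes did in edgeR (0%). At an unadjusted p under 0.05, 1 of the 51 was higher (1.96%, against 0.933% of all genes) and 0 lower (against 0.984%). The smallest p-values were those of Mmp8 (3.14 ± 1.05), Adamts7 (0.48 ± 0.27) and Timp2 (-0.55 ± 0.32), with an edgeR adjusted p of 1 each.

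Several of these genes varied more within a genotype than between genotypes, and these were picked out after their values were seen. Adam19, a membrane proteinase that cuts neuregulin, measured 20.6 and 77.2 CPM in WT vehicle, 22.1 and 50.5 in WT ifetroban, 35.3 and 32.0 in KO vehicle, and 38.7, 76.9 and 28.7 in KO ifetroban. Adamts4, an aggrecanase, measured 0.257 and 2.51 CPM in WT vehicle, 0.363 and 2.25 in WT ifetroban, 2.01 and 0.883 in KO vehicle, and 4.54, 5.47 and 0.888 in KO ifetroban. Adamts15, which also cuts proteoglycans, measured 6.16 and 10.7 CPM in WT vehicle, 5.65 and 11.1 in WT ifetroban, 8.47 and 7.03 in KO vehicle, and 8.99, 15.1 and 9.32 in KO ifetroban. In all 3 genes WT vehicle replicate 2 and WT ifetroban replicate 2 lay above the other library of their group, and KO ifetroban replicate 2 was among the highest.

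The same libraries differed in genes of the circadian clock. Arntl, the transcription factor also known as Bmal1, measured 1.85 and 15.1 CPM in WT vehicle, 1.70 and 13.7 in WT ifetroban, 7.25 and 2.13 in KO vehicle, and 8.99, 17.6 and 3.03 in KO ifetroban. Dbp, a clock output gene that peaks in the opposite phase, measured 212 and 43.5 CPM in WT vehicle, 188 and 27.4 in WT ifetroban, 107 and 183 in KO vehicle, and 84.3, 27.0 and 133 in KO ifetroban. The libraries with high Arntl were those with high Adam19, Adamts4 and Adamts15, and those with low Arntl had the higher Timp3. Over the 9 libraries the rank correlation with Arntl was 0.95 for Adam19, 0.93 for Adamts4, 0.93 for Adamts15, -0.88 for Timp3 and -0.60 for Timp4, given as a description of genes measured in the same libraries. No source used here gives the hour at which hearts were taken, and its part in these levels was not tested.

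**Figure D5:**
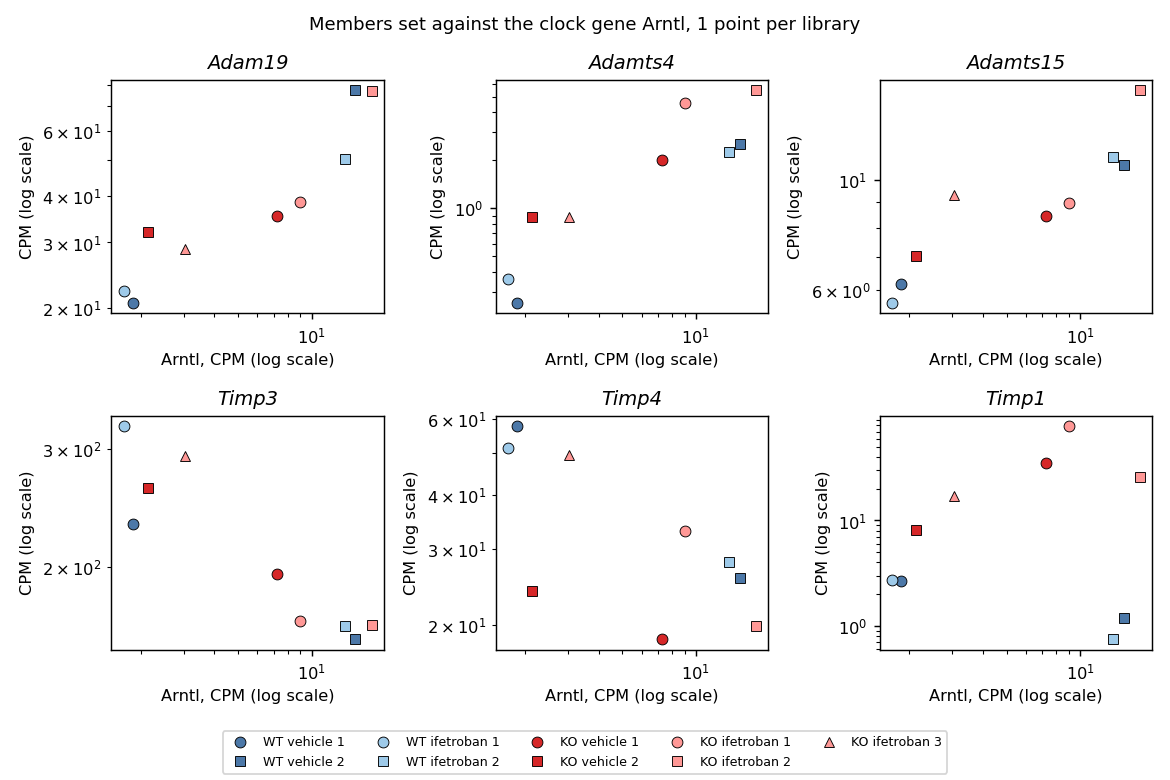
TMM-scaled CPM of Adam19, Adamts4, Adamts15, Timp3, Timp4 and Timp1 (y axes, log scale) against those of the clock gene Arntl (x axes, log scale), 1 point per library, coloured by group. Adam19, Adamts4 and Adamts15 are higher and Timp3 is lower in libraries with more Arntl, and Timp1 is at 8.07 to 78.4 CPM in the KO libraries and 0.749 to 2.71 CPM in the WT libraries.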

How the data were processed

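RNA-seq of 9 libraries of mouse left ventricle was analysed. The deposited values are expected counts per gene, of which 28.2% were not whole. The submitters' processing notes name bcl2fastq, STAR, Partek and the build mm10, while no source used here gives the counting rule, strand or annotation release. Coordinates are the deposited ones with 1 subtracted from the end.

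After rounding to whole counts, filterByExpr with the 4 groups and a minimum count of 10 retained 15549 genes, and TMM factors scaled the libraries. Tests were edgeR 4.0.16 robust quasi-likelihood tests (R 4.3.3). Effects over both treatments or both genotypes came from an additive model, and the others from a model with 4 group means. Adjustment followed Benjamini and Hochberg over all genes tested, and 0.05 was the threshold. The SE is the log2 change divided by the square root of F. The common biological coefficient of variation was 0.176. Level per kilobase divides mean CPM by the longest GENCODE M21 transcript, found for all 51 genes. The script was tested on simulated counts.

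The families and lists were chosen with earlier results of these data known. By rule the genes named are those past the threshold, the 3 with the smallest p in each comparison, the 3 highest per length in each family, and Timp1 to Timp4, Mmp2, Mmp3, Mmp9, Mmp14, Adam10, Adam12, Adam17, Adamts1, Adamts2 and Adamtsl2. Named outside it, after their values were seen, were Adamts8, Adam19, Adamts4, Adamts15, Mmp13, Arntl, Dbp, Pttg1 and Cyfip2, as well as the genes whose promoters are shown.

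Alternatives were no low-count filter, the count rule of the families as filter, DESeq2 size factors, DESeq2 1.42.0, limma-voom (limma 3.58.1), a fit on the compared groups only, a replicate block, a switch of KO ifetroban replicate 1 to vehicle, the sign of the transcript-length slope as a term, a length and GC offset, and each library left out. The libraries of each slope alone were added after seeing the data.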

Additional observations from a re-analysis of the deposited data

Results flagged for a closer look

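Mmp8, the collagenase known from neutrophils, differed in its response to ifetroban between the genotypes, by 3.14 ± 1.05 on the log2 scale at an unadjusted p of 0.0146, which did not pass over all genes (edgeR interaction, adjusted p = 1). Its counts were 2 and 6 in WT vehicle, 1 and 1 in WT ifetroban, 6 and 9 in KO vehicle, and 19, 19 and 12 in KO ifetroban. The ratio of KO ifetroban to WT ifetroban was 15.7, with a 95% interval of 4.13 to 133 (exact binomial, counting error only). Neutrophil markers summed to 2.58 and 1.58 CPM in WT ifetroban and to 22.7, 11.6 and 7.79 CPM in KO ifetroban, and their part in this difference was not tested.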

How the results depend on the processing

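Of the 51 genes, the number past the threshold for genotype over both treatments was 6, and 11 with DESeq2 (363 and 896 of all genes). With limma-voom the number was 4, where 2% of all genes passed, and with the length and GC offset 8, where 5.23% passed. DESeq2 and the offset each counted 1 fall, that of Adamts7. Leaving out the library labelled WT vehicle replicate 1 also gave 1 fall, that of Mmp15. With each library left out in turn the number ranged from 1 to 7, where 0.317% to 2.95% of all genes passed. It was 2 without WT ifetroban replicate 1 (Mmp3 and Mmp19), where 0.928% of all genes passed. It was 1 (Mmp3) without WT ifetroban replicate 2 or KO vehicle replicate 1, where 0.317% and 0.362% of all genes passed. With the length slope as a term it was 5, where 3.04% of all genes passed. Adamts2 and Adamtsl1 came in and Timp1, Adam8 and Adam12 dropped out. Under vehicle the number was 0, but 3 with DESeq2, 2 with the length slope as a term, 1 with the length and GC offset, 6 in the negative-slope libraries alone, and 0 to 1 with each library left out (1 without KO vehicle replicate 2). Under ifetroban it was 0, but 6 with DESeq2, 1 with only the groups compared, 2 in the positive-slope libraries alone, and 0 to 1 with each library left out (1 without either KO vehicle library). Of all genes, 0.759% passed under vehicle with the length slope as a term and 0.234% with the offset. Under ifetroban 0.0662% of all genes passed with only the groups compared and 0.386% in the positive-slope libraries alone. The ifetroban comparisons and the interaction gave 0 of the 51 genes under every alternative.

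With the replicate block the numbers were 8 over both treatments, 1 under vehicle (Timp1) and 6 under ifetroban. Of all genes, 3.54%, 0.36% and 1.11% passed in these comparisons with the block, against 2.33%, 0.0515% and 0.0386% without it. KO ifetroban replicate 3 is alone in its block and drops out of that fit. Deviations of same-numbered libraries correlated between -0.06 and 0.50, so the numbers were not taken to pair the samples.

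Of the alternative values of single genes, 581 kept their direction and side of the threshold, 29 lost the call, 23 gained one and 19 changed sign. For genotype over both treatments Timp3 became 0.00 with limma-voom, 0.01 with KO ifetroban replicate 1 as vehicle, and lay between -0.17 and 0.28 with each library left out. Adam10 became 0.01 with that relabelling, 0.12 with the length slope, 0.01 with the offset, and lay between -0.10 and 0.08 with each library left out. Mmp9 lay between -0.19 and 0.68 with each library left out, being -0.03 without the library labelled WT vehicle replicate 1 and -0.19 without WT ifetroban replicate 2. Adam17 lay between -0.03 and 0.10, being -0.03, 0.00 and -0.02 without that WT vehicle library, KO vehicle replicate 1 and KO ifetroban replicate 2. Adam8 for ifetroban in KO became -0.10 with the relabelling. The cause was not tested. At this depth Mmp8 and Adamts20 rest on few counts. In WT so do Mmp12 (7 and 15 counts in vehicle, 21 and 8 in ifetroban) and Adam8 (9 and 14, 21 and 12). Adam8 also had 16 counts in KO vehicle replicate 2.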
